A study of Homo sapiens with 6 samples.

Results

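Transcripts of adhesion G protein-coupled receptors were measured in H69 and H69M, a pair of human small cell lung cancer lines, on 3 arrays per line. H69 is known as a neuroendocrine line whose cells float in clusters. H69M is given by the labels only as another small cell line, without its origin, treatment or passage, and neither line carries a labelled allele or agent. The receptors were all genes whose platform symbol starts with ADGR, read from probe sets with 1 gene symbol. This gave 28 of the 18404 genes measured, each with 1 probe set: 3 of subfamily A, 3 of B, 2 of D, 5 of E, 4 of F, 6 of G, 4 of L and 1 of V. Of these, 26 are protein-coding and 2, ADGRE4P and ADGRF2P, are transcribed pseudogenes. The levels are log2 values of total RNA on Affymetrix whole-transcript arrays. The labels do not say that the 3 arrays of a line came from separate cultures, so each p-value rests only on how these arrays vary, and that variation may be technical.

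Adhesion receptors join a long extracellular part, built from adhesion domains, to a membrane-spanning part that couples to G proteins. Most cut themselves in the GAIN domain just outside the membrane, and the stretch exposed by that cut acts as a tethered agonist when the outer part is pulled away by a ligand on a neighbouring cell or in the matrix. Different members are known for roles in synapse formation (latrophilins, ADGRL, and brain angiogenesis inhibitors, ADGRB), myelination (ADGRG6), brain vessel growth (ADGRA2), surfactant balance in the lung (ADGRF5), leukocyte adhesion (ADGRE) and hearing (ADGRV1).

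The markers set the frame for both lines. Of 11 measured neuroendocrine markers, 0 were higher and 8 lower in H69M (72.7% called, against 44.2% of all genes). All but CALCA had a level above the median of all genes, where 56.7% of genes passed. The mean level of the 11 markers was 9.55 to 9.59 on the H69 arrays and 8.78 to 9.02 on the H69M arrays (log2). In H69 the defining markers NCAM1, INSM1, SYP and CHGA stood at 11.04, 10.43, 8.89 and 8.29. In H69M they stood at 9.695, 10.1, 8.10 and 8.03, and CHGA did not pass. Of 10 fibroblast markers, 9 were higher and 0 lower in H69M, with a mean level of 5.40 to 5.47 in H69 and 8.24 to 8.59 in H69M. Endothelial markers (2 higher and 1 lower of 10; 5.48 to 5.56 against 5.53 to 5.62) and leukocyte markers (1 higher and 4 lower of 11; 5.58 to 5.63 against 5.473 to 5.503) had nearly the same mean level in both lines. Their called shares, 30.0% and 45.5%, lay below and near the 44.2% of all genes. The defining endothelial genes PECAM1, CDH5 and VWF did not pass the test, while ESAM (0.55) and KDR (0.39) were higher and CLDN5 (-0.53) lower. The leukocyte gene PTPRC was lower (3.95 in H69 and 3.60 in H69M), as were LAPTM5 (-0.73) and CD14 (-0.31), and CD68 (0.57) was higher. The part of these marker shifts in the receptor results was not tested. In RNA from whole cultures, a change in the share of cells and a change in RNA per cell cannot be told apart.

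The receptors with the largest differences went both ways. ADGRG6, ADGRL2, ADGRA2 and ADGRE5 were at least 2-fold higher in H69M, and ADGRF5, ADGRB3 and ADGRV1 at least 2-fold lower. In the limma fit over all genes, with a Benjamini-Hochberg adjusted p threshold of 0.05, 5 of the 28 receptors rose, 10 fell and 13 did not pass. That is 53.6% called, against 44.2% of all genes, of which 21% were higher and 23.2% lower; the share is near the background. At 2-fold, 25% of the receptors were called (4 higher, 3 lower) against 8.28% of all genes (5.56% higher and 2.72% lower). H69 and H69M arrays were fully separated for 16 receptors (5 higher, 11 lower), where 55.8% of all genes showed no overlap (25.8% with H69M higher and 30% with H69M lower). The median log2 fold change of the receptors was -0.12, against -0.041 for all genes.

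**Figure D1:**
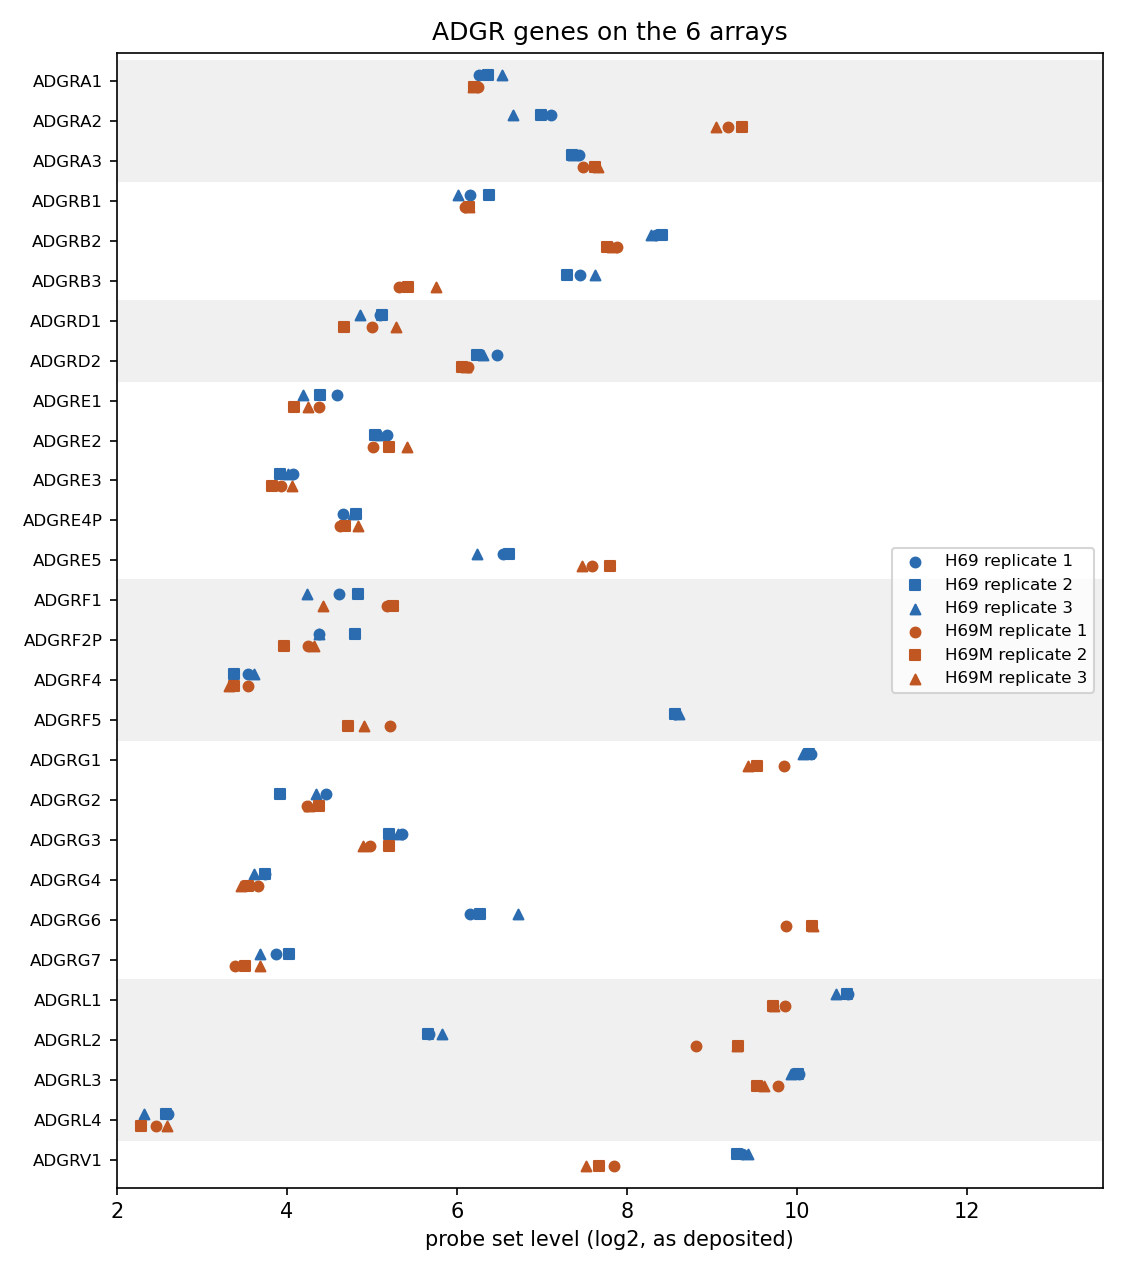
Levels of the 28 ADGR genes (rows, ordered and shaded by subfamily) on each array, in log2 as deposited; blue points are the 3 H69 arrays, orange points the 3 H69M arrays, and the marker shape gives the replicate. ADGRG6, ADGRL2 and ADGRA2 lie far to the right in H69M and ADGRF5, ADGRB3 and ADGRV1 far to the left, while most receptors with levels under 5.5 have overlapping or nearly overlapping arrays.

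The sequences upstream of 4 of these receptors are shown because those genes carried large changes in both directions and come from very different sequence. The 250 bases before the RefSeq start (GRCh38.p14) are given in the direction of the gene. Capitals mark matches, on either strand, to an E-box (CACCTG) or a GC box (GGGCGG); an AP-1 element (TGANTCA) and a TEAD element (CATTCC) were searched too and had no match in these 4 windows. No marked matches overlap. ADGRG6 lies at chr6:142301757-142302006 (plus strand), ADGRF5 at chr6:46954940-46955189 (minus strand; the first of 2 starts in the table), ADGRB3 at chr6:68635032-68635281 (plus strand) and ADGRV1 at chr5:90558547-90558796 (plus strand).
ADGRG6: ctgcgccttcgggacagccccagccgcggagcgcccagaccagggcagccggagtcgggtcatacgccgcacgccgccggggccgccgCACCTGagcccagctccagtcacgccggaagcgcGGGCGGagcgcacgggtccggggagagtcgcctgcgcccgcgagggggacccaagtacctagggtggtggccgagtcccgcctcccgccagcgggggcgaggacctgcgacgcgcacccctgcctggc
ADGRF5: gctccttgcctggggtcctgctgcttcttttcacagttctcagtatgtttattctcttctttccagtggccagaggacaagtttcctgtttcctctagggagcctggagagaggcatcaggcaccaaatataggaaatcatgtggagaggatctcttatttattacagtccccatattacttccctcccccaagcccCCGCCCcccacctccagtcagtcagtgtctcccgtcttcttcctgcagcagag
ADGRB3: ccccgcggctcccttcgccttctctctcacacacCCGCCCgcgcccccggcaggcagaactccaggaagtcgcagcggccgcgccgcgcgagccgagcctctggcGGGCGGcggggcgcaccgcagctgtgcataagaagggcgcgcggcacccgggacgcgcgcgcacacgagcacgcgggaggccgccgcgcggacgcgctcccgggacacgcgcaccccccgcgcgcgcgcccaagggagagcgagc
ADGRV1: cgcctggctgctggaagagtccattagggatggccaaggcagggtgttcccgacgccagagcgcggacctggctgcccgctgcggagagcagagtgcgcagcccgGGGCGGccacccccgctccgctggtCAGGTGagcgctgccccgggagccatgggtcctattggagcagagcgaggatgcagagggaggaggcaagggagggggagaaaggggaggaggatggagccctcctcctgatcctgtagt

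CpG content differed widely among the windows shown, which follows in part from picking them for unlike sequence. Only ADGRG6 is of a gene that rose, so whether CpG content goes with direction was not tested. The ADGRG6 window, of a gene that rose, holds 34 CpG pairs, and that of ADGRB3, which fell, holds 46. ADGRV1 has 15 and ADGRF5 only 2, with a median of 11 over all 35116 windows in the table. An E-box is present in 17.5% of all windows and in the ADGRG6 and ADGRV1 ones. A GC box is present in 42.6% of all windows and in all 4 shown. AP-1 and TEAD letters are found in 6.57% and 11.9% of all windows. Of the 28 receptors, 18 have an entry in this table, with 31 starts in all. ADGRA2 and ADGRE5, which also rose, are not among them. ADGRL2 has 8 starts and no single window stands for it. The arrays measure whole transcripts and do not say which start was used.

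Among the receptors of matrix and glia, ADGRG6 had the largest rise. ADGRG6, which Schwann cells need to form myelin and which raises cAMP, stood at 6.15, 6.27 and 6.72 on the H69 arrays and at 9.87, 10.18 and 10.19 on the H69M arrays (log2). Every H69M array was far above every H69 array, and H69 replicate 3 was the highest of its line. The difference was 3.70 ± 0.16 (log2, SE, n = 3 per line), or 13.0-fold (limma, Benjamini-Hochberg adjusted p = 1.16e-06). Of its ligands, the prion protein gene PRNP rose by 0.76 ± 0.082 and the collagen IV gene COL4A1 by 0.61 ± 0.18, and the laminin gene LAMA2 had 0.047 and did not pass; these 3 were named after their values were seen.

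ADGRG1, the next receptor of the same subfamily, is bound by collagen III and the cross-linking enzyme TGM2 and guides cortical development. It moved the other way: its levels were 10.17, 10.14 and 10.08 in H69 and 9.86, 9.53 and 9.43 in H69M, without overlap. The log2 fold change was -0.53 ± 0.11 (SE; limma, Benjamini-Hochberg adjusted p = 0.00506). TGM2 itself rose by 3.23 ± 0.092 (9.41-fold), and the collagen III gene COL3A1, named after its value was seen, rose by 2.30 ± 0.19. Within each array, the level of ADGRG6 minus that of ADGRG1 had a mean and SD over 3 arrays of -3.75 ± 0.35 in H69 and 0.48 ± 0.41 in H69M, which shows unequal change and not which probe set stands for more RNA. The tetraspanin genes CD9 (1.10 ± 0.21) and CD81 (1.01 ± 0.078), whose products associate with ADGRG1, rose; both were named after their values were seen.

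The other receptors of subfamily G read here were dim and changed little, and ADGRG5 was not among the genes read. ADGRG3, a granulocyte receptor, and ADGRG7 had log2 fold changes of -0.26 ± 0.090 and -0.34 ± 0.11 that passed narrowly (limma, Benjamini-Hochberg adjusted p = 0.0458 and 0.0334). The H69M arrays of ADGRG3 reached 5.20, level with the lowest H69 array. ADGRG2, known from the epididymis, had a difference of 0.050 and ADGRG4 one of -0.15, and neither passed. The calls of ADGRG3 and ADGRG7 were not stable. ADGRG3 lost its call without H69 replicate 1 (limma adjusted p = 0.139), 2 (0.0530) or 3 (0.110) and without H69M replicate 1 (0.110) or 3 (0.130), and ADGRG7 without H69 replicate 1 (0.0862) or 2 (0.107) and without H69M replicate 1 (0.0941) or 2 (0.0858).

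Latrophilins split within their subfamily. ADGRL2, which binds teneurins and FLRT proteins across cell contacts, stood at 5.67, 5.66 and 5.83 in H69 and at 8.81, 9.30 and 9.30 in H69M (log2). The lines were clearly apart, with H69M replicate 1 lowest of its line. The rise was 3.42 ± 0.13 (log2, SE), or 10.7-fold (limma, Benjamini-Hochberg adjusted p = 8.74e-07). ADGRL1 had 10.60, 10.59 and 10.46 in H69 and 9.86, 9.72 and 9.73 in H69M. It fell by 0.78 ± 0.070 (limma adjusted p = 5.95e-05). ADGRL3 had 10.03, 10.02 and 9.93 against 9.79, 9.53 and 9.61, and fell by 0.35 ± 0.078 (limma adjusted p = 0.00724). Neither of these 2 genes showed overlap between the lines. The within-array difference of ADGRL2 from ADGRL1 moved from -4.83 ± 0.17 in H69 to -0.63 ± 0.36 in H69M, and that from ADGRL3 from -4.27 ± 0.15 to -0.50 ± 0.41 (log2, SD, n = 3). ADGRL4, a receptor of blood vessel cells, was dim (2.49 in H69, 2.44 in H69M) and did not pass.

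Genes of latrophilin ligands were also split. The teneurin gene TENM2 rose from 7.18 ± 0.18 to 10.26 ± 0.17 (log2, SD, n = 3), by 3.08 ± 0.11 (SE; limma, Benjamini-Hochberg adjusted p = 6.70e-07). The remaining ligand genes of this paragraph were named after their values were seen. TENM1 fell by 0.80 ± 0.13, and TENM3 (0.053) and TENM4 (-0.24) did not pass. FLRT2 rose by 1.49 ± 0.10, FLRT3 fell by 1.93 ± 0.14 and FLRT1 fell by 0.53 ± 0.071. Of the neurexin genes, whose products bind ADGRL1, NRXN3 fell by 1.61 ± 0.072 and NRXN2 by 0.26 ± 0.089.

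ADGRA2 and its partner RECK rose while WNT7B fell. ADGRA2 acts with RECK, a membrane-anchored protein, to pass WNT7 signals to Frizzled in brain vessels. It stood at 7.10, 6.98 and 6.66 in H69 and at 9.19, 9.35 and 9.05 in H69M (log2), with no overlap. The rise was 2.28 ± 0.12 (log2, SE), or 4.86-fold (limma, Benjamini-Hochberg adjusted p = 4.31e-06). RECK rose from 5.12 ± 0.12 to 7.85 ± 0.033 (SD), by 2.74 ± 0.074 (SE), and WNT7B went from 8.13 ± 0.081 to 6.75 ± 0.069, a log2 fold change of -1.38 ± 0.068. The co-receptor genes LRP5 (0.39) and LRP6 (-0.22) moved little but passed, while FZD4 (0.036) and WNT7A (-0.018) did not pass, both chosen for mention with their values in view. Of the 6 genes in this list 2 rose and 2 fell (66.7% called against 44.2% of all genes; median 0.0090).

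The other A receptors were near level. ADGRA3, at 7.44, 7.36 and 7.36 in H69 and 7.49, 7.63 and 7.66 in H69M, differed by 0.21 ± 0.067 (limma, Benjamini-Hochberg adjusted p = 0.0378). This call was lost without H69 replicate 1 (0.0583), 2 (0.108) or 3 (0.0984) and without H69M replicate 2 (0.108) or 3 (0.111). A pseudogene copy of ADGRA3 exists, so its probes may read both. ADGRA1, a receptor of the nervous system, had -0.17 and did not pass (limma adjusted p = 0.116), although its arrays did not overlap.

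ADGRE5 was the only receptor of its subfamily past the test in this comparison. ADGRE5, also called CD97, is carried by leukocytes and many carcinoma cells and binds CD55, THY1 and the integrin of ITGA5 and ITGB1. Its levels were 6.54, 6.61 and 6.24 in H69 and 7.59, 7.80 and 7.47 in H69M (log2), so the lines did not overlap. The rise was 1.16 ± 0.12 (log2, SE), or 2.23-fold (limma, Benjamini-Hochberg adjusted p = 0.000132). ITGA5 rose by 6.99 ± 0.097 and CD55 by 2.94 ± 0.12 (from 7.37 ± 0.22 to 10.31 ± 0.12, SD). THY1 rose by 2.37 ± 0.13 and ITGB1 by 1.08 ± 0.079, both named after their values were seen. Over all genes 21% were higher, and of the 30 ligands and binding partners listed 13 rose and 8 fell. THY1 is also in the fibroblast marker list. The myeloid receptors ADGRE1 (-0.15), ADGRE2 (0.11) and ADGRE3 (-0.062) and the pseudogene ADGRE4P (-0.034) had overlapping arrays and did not pass. ADGRE2 and ADGRE5 are close relatives in sequence, and how their probes cross-react is not known here.

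ADGRF5 showed the largest fall. It is the receptor that restrains surfactant in alveolar cells and is found on vessel cells. Its levels were 8.57, 8.57 and 8.62 in H69 and 5.21, 4.72 and 4.91 in H69M (log2). The H69 arrays lay within a narrow band and the H69M arrays far below it, with more spread. The log2 fold change was -3.64 ± 0.12 (SE), a 12.5-fold drop (limma, Benjamini-Hochberg adjusted p = 3.38e-07). Its level passed from above 73.1% of genes in H69 to above 17.2% in H69M, and RMA compresses folds at such dim levels. The surfactant protein gene SFTPD (-0.087) and FNDC4 (-0.029), both reported ligands, did not pass and were likewise picked with their values in view. The other F members read here were dim in both lines, and ADGRF3 was not among the genes read. ADGRF1, a receptor for a fatty acid amide in neurons, had 4.61, 4.84 and 4.24 against 5.18, 5.24 and 4.42, with a log2 fold change of 0.39 ± 0.23 (limma adjusted p = 0.221), and it passed when H69M replicate 3 was left out (0.65, adjusted p = 0.0151) and with the replicate number as a block (adjusted p = 0.0151). ADGRF2P (-0.34) and ADGRF4 (-0.097) did not pass.

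Brain angiogenesis inhibitor receptors were lower in H69M where they passed. ADGRB3, which binds C1q-like proteins at synapses, stood at 7.45, 7.29 and 7.62 in H69 and at 5.32, 5.43 and 5.76 in H69M (log2). Every H69M array was below every H69 array. The log2 fold change was -1.95 ± 0.13 (SE), a level 3.87-fold lower (limma, Benjamini-Hochberg adjusted p = 1.14e-05). ADGRB2 had 8.34, 8.42 and 8.29 against 7.89, 7.77 and 7.83, and fell by 0.52 ± 0.064 (limma adjusted p = 0.000337). ADGRB1, a receptor for exposed phosphatidylserine on dying cells, had -0.059 with overlapping arrays and did not pass. Of the C1q-like ligand genes, C1QL1 (-0.60 ± 0.090) and C1QL3 (-0.43 ± 0.089) fell, and C1QL2 and C1QL4 did not pass. Of the Nogo receptor genes, RTN4RL1 rose by 0.28, and RTN4R and RTN4RL2 did not pass. The ligand genes here were named after their values were seen.

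ADGRV1 fell too. It encodes a very long receptor that forms links between the stereocilia of hair cells, and its loss causes a form of Usher syndrome. The levels were 9.35, 9.30 and 9.42 in H69 and 7.86, 7.67 and 7.52 in H69M (log2), well apart. The log2 fold change was -1.68 ± 0.091 (SE), a level 3.20-fold lower (limma, Benjamini-Hochberg adjusted p = 4.10e-06). Of 5 measured genes for its Usher partners, MYO7A (-0.999 ± 0.067) and USH1C (-0.81 ± 0.082) fell and 3 did not pass (40.0% called against 44.2% of all genes). In subfamily D, ADGRD1, known from glioblastoma, had -0.038 and did not pass. ADGRD2 had -0.24 ± 0.074 (limma adjusted p = 0.0311), a call lost without H69 replicate 1 (0.10) or 3 (0.0581) and without H69M replicate 2 (0.0927) or 3 (0.0642).

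**Figure D2:**
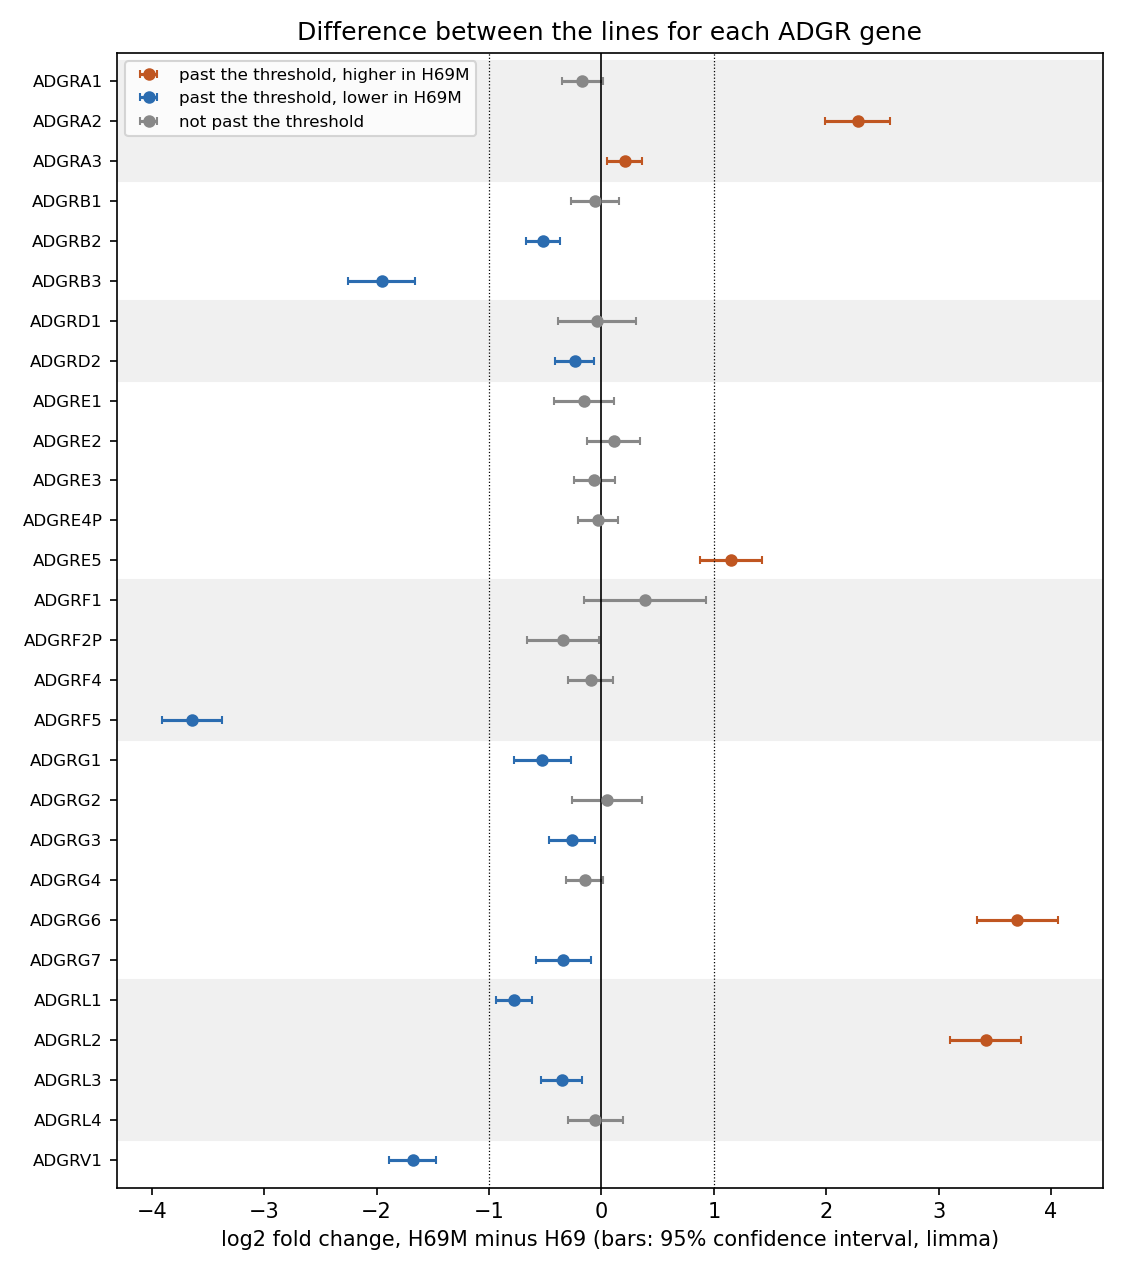
Log2 fold change (H69M minus H69) of the 28 ADGR genes with its 95% confidence interval from limma (n = 3 arrays per line); orange marks genes past the threshold and higher, blue those past it and lower, grey the rest, and dotted lines a 2-fold difference. Values run from -3.64 for ADGRF5 to 3.70 for ADGRG6. Subfamilies A, B, E, F, G and L each hold 1 receptor beyond 2-fold beside others within 2-fold, of which ADGRL1 (-0.78) changed most.

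Receptors that did not pass were mostly dim. Of 13 receptors with a mean level below the 25th percentile of all genes, 2 passed (15.4%, against 20.3% of all genes that dim). Of 6 between that percentile and the median, 4 passed (66.7% against 43.1%), and of 9 above the median all 9 passed (100.0% against 56.7%). The confidence interval of the 13 receptors that did not pass leaves room for small changes: the widest, for ADGRF1, ran from -0.15 to 0.93.

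Ligands, partners and signalling genes also went both ways. Of 102 measured genes in 8 lists, 38 rose, 26 fell and 38 did not pass (62.7% called against 44.2% of all genes), with a median log2 fold change of 0.038. Of the 102, 69 were not below the median level of all genes. Above that level 56.7% of all genes passed, so brighter genes are called more often. No list share was matched for level, and the lists were chosen with earlier results of these data known. Of the 30 ligands and binding partners, 13 rose and 8 fell (70.0% called against 44.2% of all genes; median 0.050), led by ITGA5, TGM2, TENM2 and CD55.

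**Figure D3:**
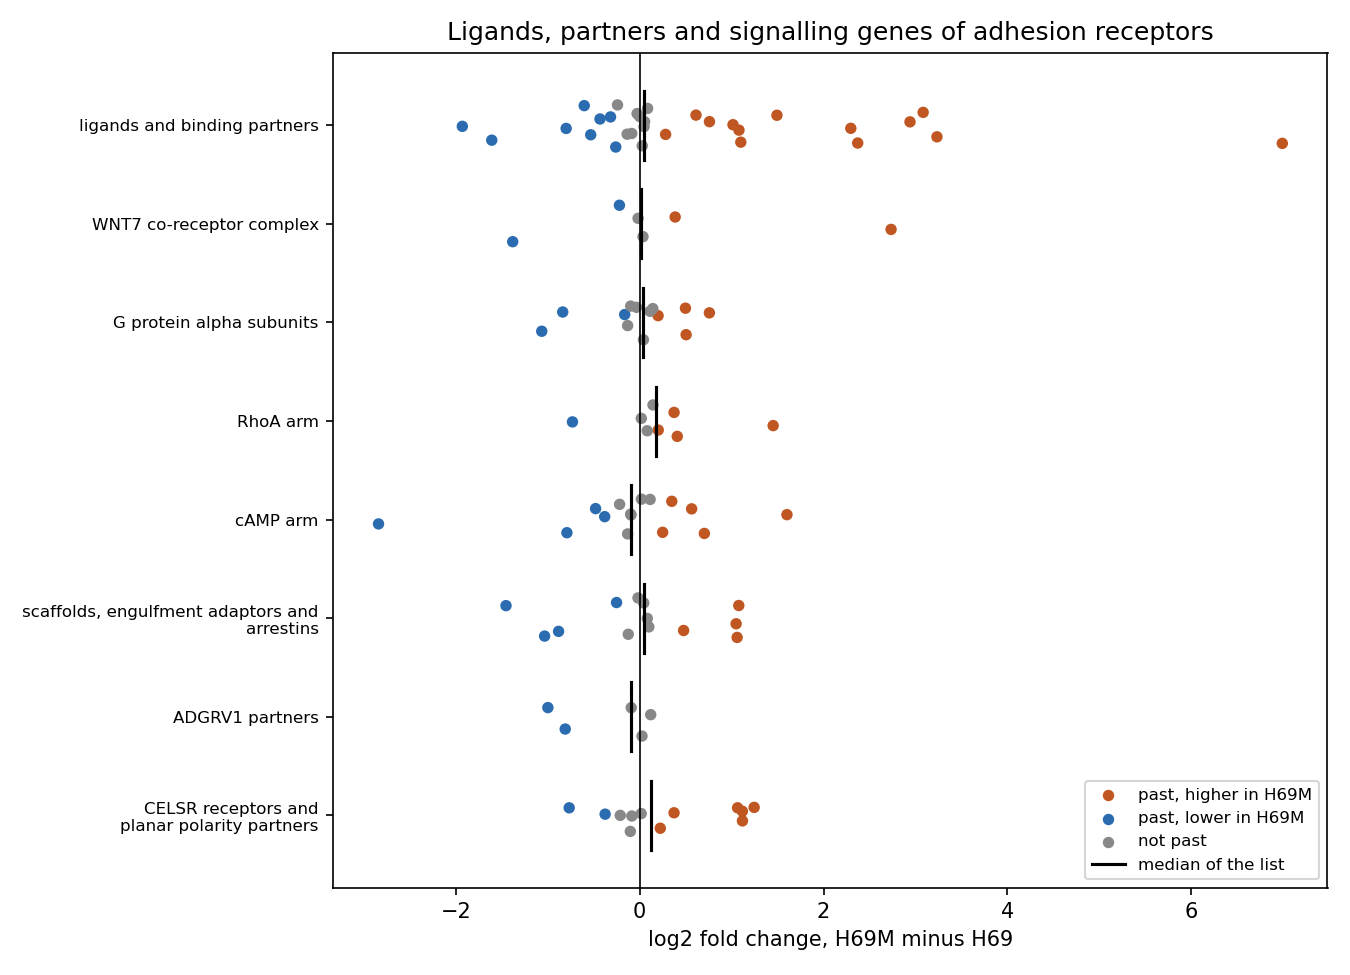
Log2 fold change (H69M minus H69) of each measured gene in the 8 lists of ligands, partners and signalling genes; each point is a gene, coloured orange or blue where it passed the threshold (higher or lower in H69M) and grey where it did not, and black bars are list medians. Genes past the threshold lie on both sides of 0 in every list except the ADGRV1 partners, where 0 were higher, and the medians stay between -0.095 and 0.17.

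Genes of the proteins that carry the receptors' signals changed in both directions. Of 13 G protein alpha subunit genes, 4 rose and 3 fell (53.8% called against 44.2% of all genes; median 0.040). The neuronal subunit genes GNAZ (-1.07 ± 0.088, log2, SE) and GNAO1 (-0.84 ± 0.094) fell and the broadly expressed GNAI2 (0.76 ± 0.062) and GNAI3 (0.50 ± 0.057) rose. GNA13, which couples several adhesion receptors to RhoA, had 0.040 and did not pass. GNA12 (0.50 ± 0.064) and GNA11 (0.20 ± 0.060) rose and GNAS (-0.16 ± 0.055) fell. GNA13 and these genes were named after their values were seen. In the RhoA list 4 of 8 rose and 1 fell (62.5% called against 44.2%; median 0.17), with the cofilin kinase genes LIMK1 at 1.45 ± 0.097 and LIMK2 at -0.73 ± 0.082, the myosin-regulating kinase gene ROCK2 at 0.41 and RHOA at 0.37.

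In the cAMP list 5 of 15 rose and 4 fell (9 of 15 called, against 44.2% of all genes; median -0.095). Adenylyl cyclase genes went both ways: ADCY1, a neuronal form, fell by 2.84 ± 0.067 (7.17-fold lower, from 9.03 ± 0.066 to 6.19 ± 0.080, SD), ADCY2 rose by 1.60 ± 0.31 and ADCY6 by 0.70 ± 0.068. The phosphodiesterase gene PDE4D fell by 0.79 ± 0.063. ADCY2 had the widest spread of these, with an SD of 0.72 among the H69M arrays.

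Among 13 scaffold, engulfment and arrestin genes, 4 rose and 4 fell (61.5% called against 44.2% of all genes; median 0.044). ELMO1, the adaptor that links ADGRB1 to RAC1, fell by 1.46 ± 0.14, and its partner gene DOCK1 rose by 1.06 ± 0.10. The synaptic scaffold gene DLG1 rose by 1.08 ± 0.068 and the arrestin gene ARRB1 by 1.05 ± 0.083. RAC1 (-0.88 ± 0.074), SHANK2 (-1.035 ± 0.081) and SHANK3 (-0.25 ± 0.081) fell and ELMO2 (0.48 ± 0.084) rose, each named after its value was seen. The CELSR genes, which encode adhesion receptors of planar polarity listed outside the ADGR symbols, were in a list where 6 of 12 rose and 2 fell (66.7% called against 44.2%; median 0.12). VANGL1 (1.25), PRICKLE1 (1.12), CELSR1 (1.12 ± 0.059) and VANGL2 (1.06) rose. CELSR2 (-0.77 ± 0.095) and CELSR3 (-0.38 ± 0.076), named after their values were seen, fell.

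Neighbouring genes in reference order shared the direction of some receptors and not of others. For each of the 7 receptors beyond 2-fold, the 3 nearest measured protein-coding genes on each side were read, whatever their distance. Over all genes 21% were higher and 23.2% lower, so called genes are common beside any gene. The neighbours of ADGRF5 ran from -0.62 to 0.48, with 1 higher and 1 lower of 6. TDRD6, PLA2G7, MEP1A and ADGRF1 among them were dim in H69 (3.317, 3.622, 4.165 and 4.562, log2), where a fall could hardly show. The brighter TNFRSF21 (9.216 in H69) rose by 0.48 and CD2AP (10.04 in H69) fell by 0.62. ADGRE5 rose between genes of which 0 were higher and 3 lower, among them its direct neighbour ADGRL1. ADGRA2 had 2 higher and 1 lower, between -0.36 and 0.43.

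In contrast, the next genes on one side of ADGRG6, HIVEP2 (4.75) and AIG1 (2.96), rose with it. On the other side CITED2 rose by 0.90 and TXLNB was at -2.24, which made 3 higher and 1 lower of 6. EYS, the gene before ADGRB3, had -3.41. Of the 6 neighbours of ADGRB3, 3 were lower and 0 higher, where 23.2% of all genes were lower. ADGRV1 had 4 lower and 0 higher, down to -1.44 for POLR3G. Beside ADGRL2, the interferon-induced IFI44L (2.46) and IFI44 (1.75) rose on one side. ADGRL4, which lies between, had -0.055 and did not pass. It was very dim in both lines (2.49 in H69, 2.44 in H69M, log2), so its value says little about the stretch between. On the other side TTLL7 (-0.59) and SAMD13 (-0.76) fell, so that 2 of the 6 neighbours were higher and 2 lower.

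**Figure D4:**
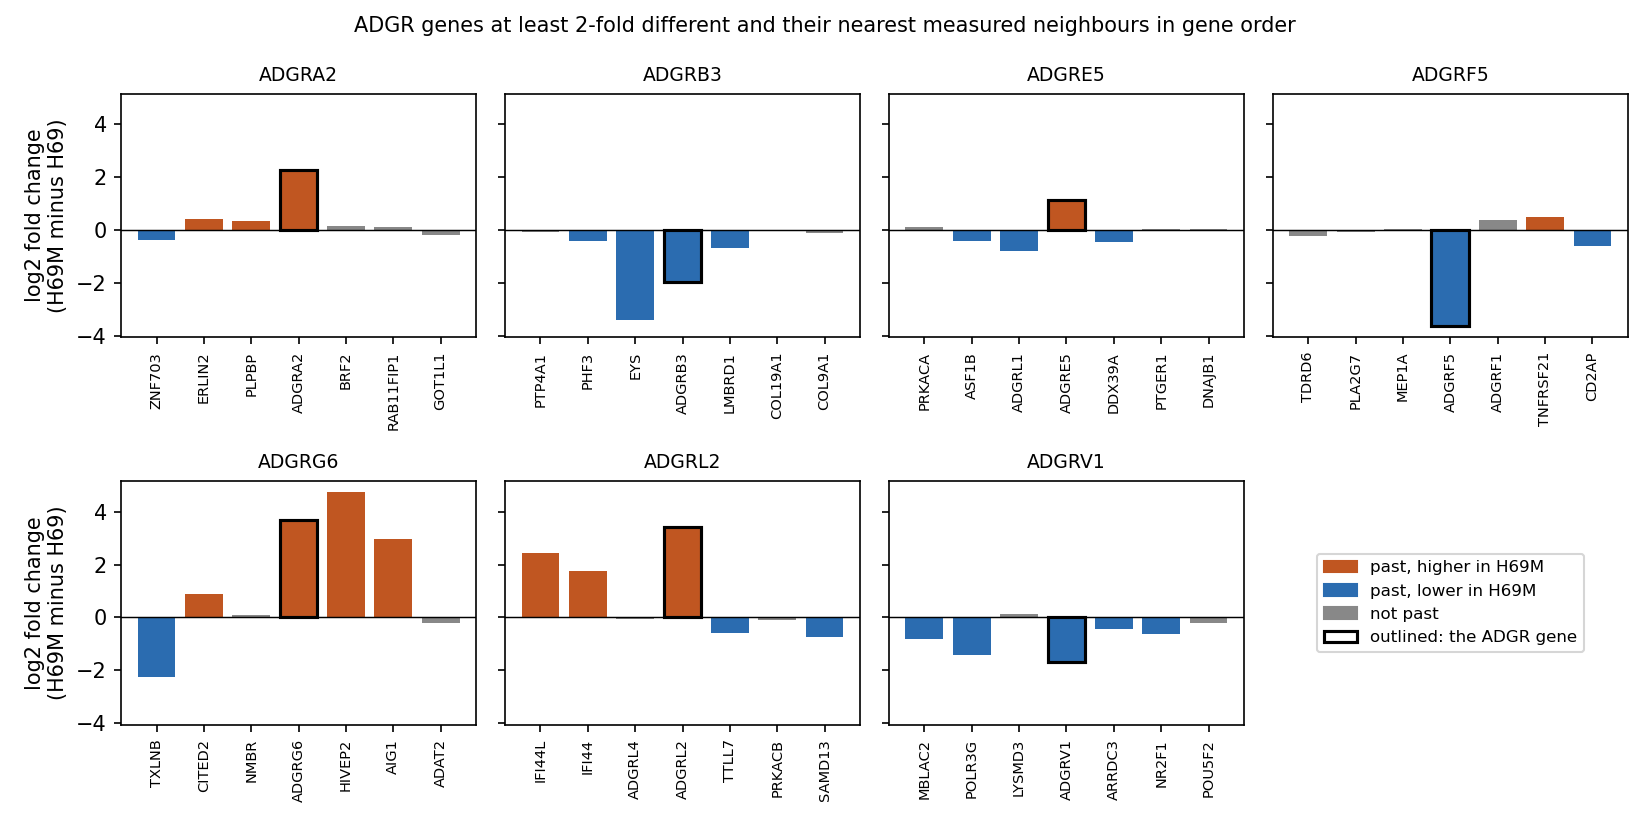
Log2 fold change (H69M minus H69) of the 7 ADGR genes beyond 2-fold (outlined bars) and of the 3 nearest measured protein-coding genes on each side in reference gene order; orange bars passed the threshold upwards, blue bars downwards, and grey bars did not pass. The receptor has the largest change in 5 of the 7 panels, whereas HIVEP2 beside ADGRG6 and EYS beside ADGRB3 changed more than the receptor itself. The receptors were picked for a change beyond 2-fold and the neighbours were not, which favours the receptor being largest.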

How the data were processed

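Affymetrix whole-transcript arrays measured total RNA of H69 and H69M. The authors deposited log2 values per probe set; per the submitters' processing notes RMA and limma were used, without versions, and the RMA software and the build are not given in these sources. Such values carry no detection call.

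The table held 32321 probe sets; 19158 had 1 symbol in the platform annotation, 1388 had several and 11775 had none listed. Genes were read from the first kind, by the probe set with the highest mean. Of those 19158 probe sets, 19128 matched the GRCh38.p14 gene table. The 1 probe set shared by an ADGR gene and its pseudogene was not used. H69M was compared with H69 with limma 3.58.1 in R 4.3.3 (lmFit, eBayes, two-sided, no covariate, nothing normalized again), adjusted over 18404 genes at 0.05. Named genes were all ADGR genes, in full if past 2-fold, up to 4 changed genes per list and the defining markers, with the neighbours of receptors past 2-fold as counts and ranges; others, the neighbours named included, were picked after their values were seen. Members, lists and pairs were chosen with earlier results of these data known. Promoters came from RefSeq. Alternatives covered scaling, filters, variance models, probe sets, the replicate block and each array left out. The number of arrays limits precision (median SE 0.075). On simulated data of 18404 genes with 200 changed, recovery was 12% for a log2 change of 0.25, 62% for 0.5 and 94% for 1. In the data 44.2% of genes passed, and the adjusted threshold depends on that share, so these rates need not hold there. Python 3.11.15 was used for lists and plots.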

Additional observations from a re-analysis of the deposited data

How the results depend on the processing

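The 7 receptors beyond 2-fold kept their direction and their call under every alternative in which they were tested. Leaving out genes below the median level left 9 receptors, and the counts became 5 lower, and 1 at least 2-fold lower, since ADGRF5 and ADGRB3 (as well as ADGRE5) were no longer tested. With 1 array left out, 4 to 5 receptors were higher and 7 to 8 lower, and 33 to 37 list genes were higher and 21 to 29 lower. Over all receptors and alternatives, 31 of 444 values lost their call, all for ADGRA3, ADGRD2, ADGRG3 and ADGRG7, 2 gained one (ADGRF1), and 0 called values turned direction. Centring the arrays on their medians moved the median of all genes by 0.030 and left 8 receptors lower. Replicate numbers did not pair the arrays (same-numbered arrays' deviations correlated at 0.007 to 0.021). With the replicate block, 5 receptors were higher and 8 lower, and ADGRA3 (limma adjusted p = 0.0783), ADGRG3 (0.0766) and ADGRG7 (0.0535) lost their calls while ADGRF1 gained one (0.0151).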

Other observations

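H69M replicate 1 lay nearest to H69 of the H69M arrays for 10 of the 15 receptors past the threshold, H69M replicate 3 for 4 and H69M replicate 2 for 1. Over all genes too, replicate 1 differed less from the H69 arrays (root mean square difference of 0.671 to 0.684 in log2) than replicates 2 and 3 (0.742 to 0.750). ADGRG6, ADGRL2, ADGRF5 and ADGRV1 were among the 10.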
